A study of Homo sapiens with 16 samples.

Results

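The 10 genes described here set HCT116 cells that lack p53 apart from HCT116 cells that keep it: EHF, NRIP1, PROM1, CASP4, RGS2 and ENC1 were lower in the p53-/- line, and ZBED2, NECTIN3, DNER and TIMM17B were higher. They were chosen by the size of the difference in RPKM level between the genotypes without drug, among 20612 genes in the deposited table, so that difference is given below as a description. HCT116 is a human colorectal cancer cell line, and p53 is the transcription factor that arrests or kills damaged cells. Each genotype was treated for 8 hours with 5 µM Nutlin-3A, which frees p53 from the ubiquitin ligase MDM2, with 2.5 µM Entinostat, which inhibits class I HDACs (histone deacetylases), with both drugs together (the combination), or with the vehicle DMSO. RNA of each of these 8 groups was sequenced in 2 replicates, which gave 16 libraries of cells grown in the same medium. The labels name a genotype but not a clone and do not say how the p53-/- line was made. The loss of p53 therefore cannot be told apart from any other difference between the 2 lines. The question was whether any of the 10 genes responded to Nutlin-3A or Entinostat, and whether the gap between the lines persisted under the drugs.

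Stabilised p53 binds DNA and raises genes such as CDKN1A, the gene of the cell cycle inhibitor p21, and MDM2 itself. Class I HDACs remove acetyl groups from histones, and their inhibition changes the transcription of many genes in both directions without needing p53. By role the 10 genes fall into groups. EHF, NRIP1 and ZBED2 encode regulators of transcription, PROM1, NECTIN3 and DNER encode proteins of the cell surface, and CASP4, RGS2, ENC1 and TIMM17B encode proteins that act inside the cell.

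The libraries held 45902800 to 55507300 alignments each, and values are RPKM, reads normalized to gene length and sequencing depth. CDKN1A had 26.9 and 16.7 RPKM under Nutlin-3A in p53-/- cells, against 23.7 and 14.1 RPKM in DMSO, and 1059 and 763 RPKM under Nutlin-3A in p53+/+ cells, against 89.2 and 66.1 RPKM in DMSO. CDKN1A thus stood apart from DMSO without overlap under Nutlin-3A in the p53+/+ libraries, and overlapped DMSO in the p53-/- libraries. MDM2 had 328 and 268 RPKM under Nutlin-3A in p53+/+ cells, against 20.4 and 20.0 RPKM in DMSO. In p53-/- cells MDM2 had 18.3 and 22.1 RPKM under Nutlin-3A, against 14.6 and 14.7 RPKM in DMSO. Those p53-/- libraries did not overlap either, though the change was not called (limma, adjusted p = 0.956). Of 8 epithelial markers all but LGALS4, at 0.0969 RPKM or less, were detected throughout, and their summed level was 1763 to 2712 RPKM in p53-/- and 2138 to 4679 RPKM in p53+/+ libraries. The 13 markers of other cell types summed to 2.38 to 5.79 RPKM in p53-/- and 2.58 to 8.23 RPKM in p53+/+ libraries, nearly all of it COL1A1 and DES, and their part in the results was not tested. In bulk RNA, fewer cells that express a gene and less RNA per cell cannot be told apart.

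Changes are differences of log2(RPKM + 0.5) with their SE from limma, adjusted by the Benjamini-Hochberg method over 12466 tested genes. Folds and fractions of a level are ratios of mean RPKM without the 0.5, so for low genes they exceed what the log2 change gives. Calls required an adjusted p under 0.05. All 10 genes passed the filter on low values, a mean of at least 0.5 RPKM over the 16 libraries, which a gene could pass through its high line alone. In DMSO all 10 were called, against 4.69% of tested genes, which follows from the way they were chosen. They were not simply the top of that list: by absolute log2 difference EHF ranked 1, ZBED2 2, PROM1 3, CASP4 5, NRIP1 7, RGS2 8, ENC1 9, TIMM17B 20, NECTIN3 25 and DNER 29. The choice was by the DMSO difference, but it was made with earlier results of these data known. The drug-treated libraries come from the same 2 lines, so the counts under drug are a description and no independent evidence. In them all 10 were called in the same direction as in DMSO under Nutlin-3A, where 34.4% of all genes were called. The same held under the combination, where 36.3% were called. Under Entinostat 9 of 10 were called, against 3.76% of all genes. RGS2 was the exception, and with the replicate number fitted as a block (replicate block) all 10 were called, against 13.2% of all genes.

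Under Nutlin-3A in p53-/- cells limma called 0 of the 10 genes and 0% of all genes, with 0 of the 10 and 440 of all genes at an unadjusted p under 0.05. Nutlin-3A raised EHF and ZBED2 in p53+/+ cells, 2 of 10 genes where 17.4% of all genes were called. Entinostat changed 4 of the 10 in p53-/- cells, against 28.2% of all genes, and 3 of the 10 in p53+/+ cells, against 27.5%. In p53-/- cells RGS2 and ENC1 rose and ZBED2 and NECTIN3 fell. In p53+/+ cells DNER rose and EHF and NRIP1 fell. The median log2 change of the 10 genes under Entinostat was 0.13 in p53-/- cells, where that of all tested genes was 0.02, and -0.13 in p53+/+ cells, where that of all tested genes was 0.01. PROM1 and CASP4 were not called in any comparison of a drug with DMSO, though CASP4 passed under the combination in p53-/- cells in 2 alternative settings, given below. All drug comparisons with DMSO share their DMSO libraries with the choice of the genes, and each p measures the spread between samples that the labels do not describe as separate cultures, which may be technical.

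**Figure D1:**
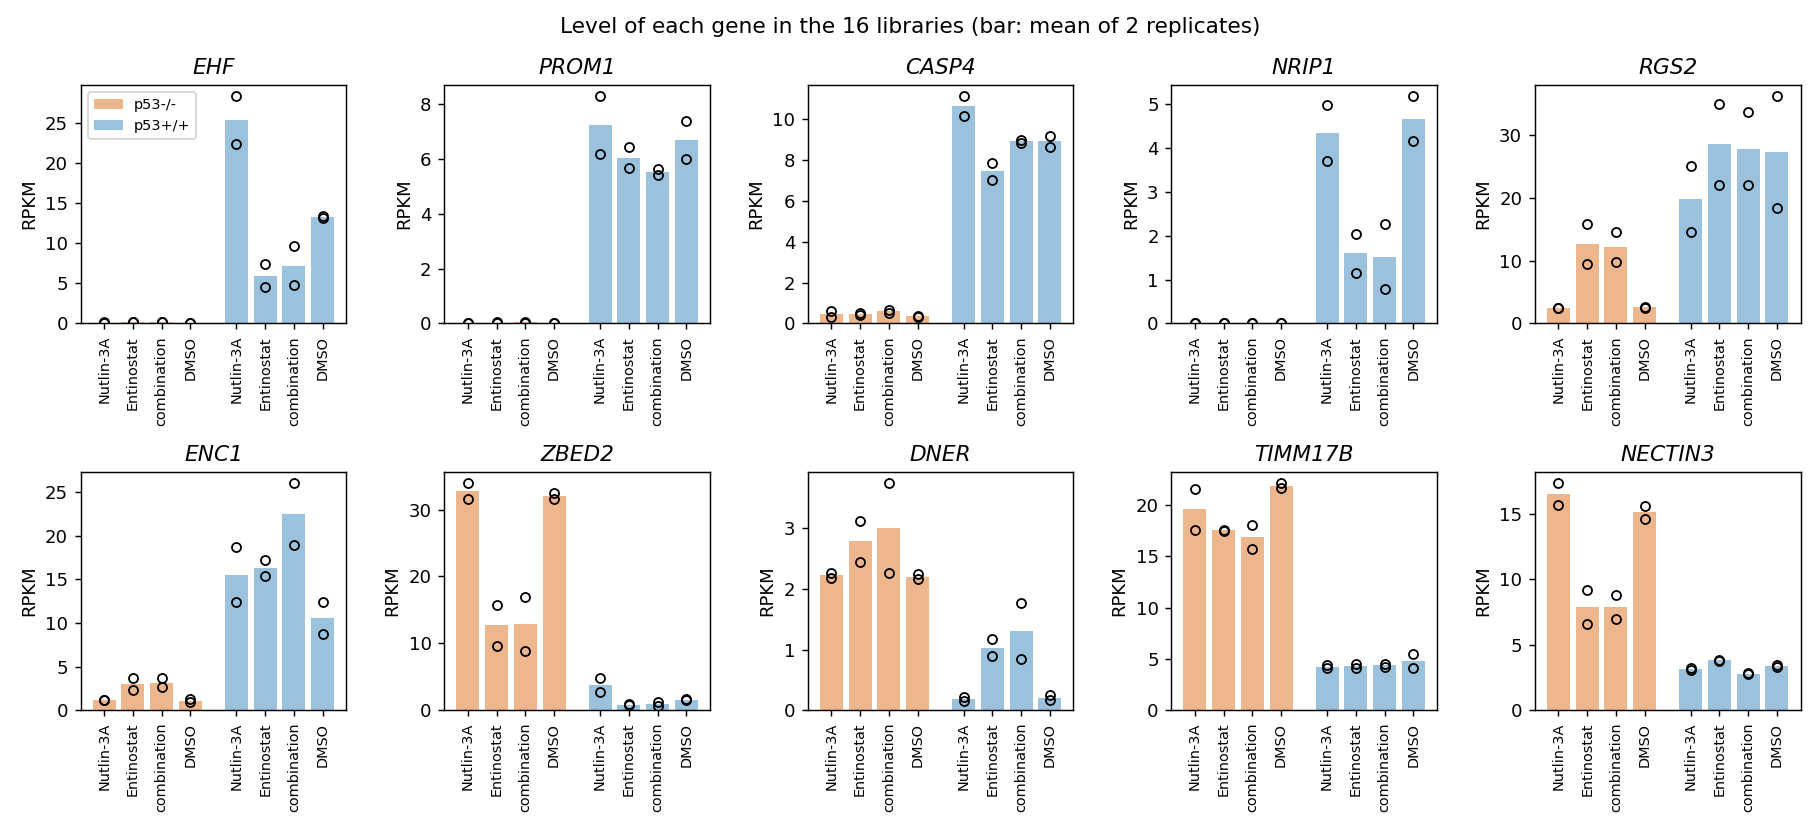
RPKM of each gene (linear axes from 0) in the 16 libraries, with open circles for single libraries and bars for the mean of 2 replicates, p53-/- groups in orange and p53+/+ groups in blue. EHF, PROM1 and NRIP1 stayed at or below 0.233 RPKM in every p53-/- library, while RGS2 and ENC1 stood higher with Entinostat than without it in p53-/- cells.

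The promoters of the genes that were nearly silent in one line (EHF, NRIP1 and PROM1) and of the 2 genes of chromosome 3 that were high in it (ZBED2 and NECTIN3) are shown because these genes came closest to an on or off pattern or are neighbours, and because their CG content ranges widely. Each sequence is the RefSeq stretch from 250 bases before to 50 bases after the annotated start, 5′ to 3′ on the gene's strand in GRCh38.p14, and capitals mark CG dinucleotides. EHF lies at chr11:34624007-34624306 on the plus strand, NRIP1 at chr21:15065887-15066186 on the minus strand, PROM1 at chr4:16083974-16084273 on the minus strand, ZBED2 at chr3:111595297-111595596 on the minus strand and NECTIN3 at chr3:111071566-111071865 on the plus strand. EHF, NRIP1 and PROM1 have further annotated starts, and one start of each is shown.
EHF: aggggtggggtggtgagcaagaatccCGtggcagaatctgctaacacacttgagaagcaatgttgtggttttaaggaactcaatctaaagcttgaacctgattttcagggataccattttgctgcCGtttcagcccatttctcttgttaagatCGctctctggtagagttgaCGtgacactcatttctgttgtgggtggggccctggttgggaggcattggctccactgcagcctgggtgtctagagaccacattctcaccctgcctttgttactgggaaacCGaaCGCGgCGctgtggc
NRIP1: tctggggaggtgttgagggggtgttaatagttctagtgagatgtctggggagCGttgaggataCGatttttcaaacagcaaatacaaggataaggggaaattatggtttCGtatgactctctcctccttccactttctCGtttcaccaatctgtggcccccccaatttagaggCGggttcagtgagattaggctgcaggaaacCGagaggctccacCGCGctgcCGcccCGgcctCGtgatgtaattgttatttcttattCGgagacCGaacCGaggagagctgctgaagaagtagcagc
PROM1: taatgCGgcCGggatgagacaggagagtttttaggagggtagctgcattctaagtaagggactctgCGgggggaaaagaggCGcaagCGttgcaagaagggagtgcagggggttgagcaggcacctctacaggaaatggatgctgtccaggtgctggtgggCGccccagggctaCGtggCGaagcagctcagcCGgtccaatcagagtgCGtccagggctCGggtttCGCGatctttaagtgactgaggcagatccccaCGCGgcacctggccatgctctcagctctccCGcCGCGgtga
ZBED2: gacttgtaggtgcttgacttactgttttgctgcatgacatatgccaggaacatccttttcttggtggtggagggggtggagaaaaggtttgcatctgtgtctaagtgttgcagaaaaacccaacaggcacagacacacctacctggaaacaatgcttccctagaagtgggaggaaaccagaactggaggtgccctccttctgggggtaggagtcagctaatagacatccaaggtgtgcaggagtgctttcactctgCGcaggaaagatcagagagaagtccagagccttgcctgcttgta
NECTIN3: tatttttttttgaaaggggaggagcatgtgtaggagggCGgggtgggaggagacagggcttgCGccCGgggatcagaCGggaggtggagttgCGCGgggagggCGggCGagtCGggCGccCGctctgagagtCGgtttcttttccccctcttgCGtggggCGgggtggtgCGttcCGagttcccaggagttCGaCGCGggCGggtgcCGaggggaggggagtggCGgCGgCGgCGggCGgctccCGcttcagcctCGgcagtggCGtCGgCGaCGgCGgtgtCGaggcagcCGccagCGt

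These 5 promoters hold 8, 14, 18, 1 and 36 CG dinucleotides in that order, and the median of 35116 RefSeq promoters of the same length is 14. At least as many CG as in EHF are found in 60.7% of all promoters, as in NRIP1 in 50.3%, as in PROM1 in 44.5%, as in ZBED2 in 96% and as in NECTIN3 in 12.7%. The starts not shown differ: those of NRIP1 hold 32 and 48 CG, the latter a count reached by 1.98% of all promoters. Those of PROM1 hold 32, 24 and 6, and that of EHF holds 3. The genes low in p53-/- cells thus include promoters with few and with many CG, as CASP4 holds 3 and RGS2 32, and so do those high in it, as TIMM17B holds 26. Promoter sequences were found for 8 of the 10 genes, with 14 starts, and ENC1 and DNER were not among them. The p53 decamer consensus, searched on both strands, occurred in 0 of the 14 windows and in 6.63% of all promoters, which says only that these letters are not in these windows.

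EHF encodes an ETS transcription factor of epithelial cells. Its level in p53-/- cells was 0.123 and 0.0916 RPKM under Nutlin-3A, 0.233 and 0.130 RPKM under Entinostat, 0.217 and 0.118 RPKM under the combination, and 0.105 and 0.0879 RPKM in DMSO. In p53+/+ cells it was 28.4 and 22.4 RPKM under Nutlin-3A, 4.55 and 7.39 RPKM under Entinostat, 4.82 and 9.63 RPKM under the combination, and 13.2 and 13.4 RPKM in DMSO. All 8 p53-/- libraries lay far below all p53+/+ libraries, and in p53+/+ cells the drugs moved EHF in opposite directions without overlap. The difference between the lines was -5.41 ± 0.26 on the log2 scale under Nutlin-3A (limma, adjusted p = 6.12e-08) and -3.22 ± 0.26 under Entinostat (adjusted p = 2.95e-05). By the ratio of mean RPKM, EHF was 237-fold and 33.0-fold lower in p53-/- cells, where its mean was only 0.107 and 0.181 RPKM.

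In p53+/+ cells EHF rose 1.91-fold under Nutlin-3A, a log2 change of 0.90 ± 0.26 (limma, adjusted p = 0.0349). That call was lost without any 1 of the 4 libraries, with adjusted p from 0.0621 without Nutlin-3A replicate 2 to 0.219 without Nutlin-3A replicate 1. It was also lost with a pseudocount of 0.1 (0.073) and with no filter on low values (0.0857). Entinostat lowered EHF to 0.449 of its DMSO level (log2 change -1.13 ± 0.26, adjusted p = 0.00952). The adjusted p was 0.115 without Entinostat replicate 1 and 0.0573 without DMSO replicate 2. With both drugs EHF stood at 0.285 of its level under Nutlin-3A alone (log2 change -1.81 ± 0.26, adjusted p = 0.000857), a comparison that uses no DMSO library and held without any 1 library. Against DMSO the combination gave a log2 change of -0.91 ± 0.26 (adjusted p = 0.013), which was 0.0505, 0.161 and 0.0596 without DMSO replicate 1, combination replicate 1 and DMSO replicate 2. EHF in p53-/- cells gave no call, with a log2 change of 0.19 under Entinostat and a 95% interval of -0.39 to 0.76.

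Of 9 other ETS genes tested, Entinostat raised 3 and lowered 2 in p53-/- cells and raised 2 and lowered 2 in p53+/+ cells. ELF3, an epithelial ETS factor related to EHF, averaged 18.2 RPKM under Entinostat and 7.68 RPKM in DMSO in p53-/- cells (log2 change 1.21 ± 0.13, limma adjusted p = 0.000426), and 34.6 and 15.97 RPKM in p53+/+ cells (log2 change 1.10 ± 0.13, adjusted p = 0.000587). ELF3 therefore rose under Entinostat in the p53+/+ cells in which EHF fell. ETS1, a broadly expressed ETS factor, rose too, by 1.19 ± 0.26 in p53-/- cells (adjusted p = 0.00671) and 1.39 ± 0.26 in p53+/+ cells (adjusted p = 0.0034). ELF3 was also the one ETS gene besides EHF that was lower in p53-/- cells under each drug, at -1.64 under Nutlin-3A, -0.91 under Entinostat and -1.51 under the combination, with adjusted p of 0.00182 or less.

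NRIP1 encodes a cofactor that represses the activity of nuclear hormone receptors. It was listed in p53-/- cells at 0 in 5 of 8 libraries and at most at 0.0157 RPKM in the others. The p53+/+ libraries held 3.70 and 4.98 RPKM under Nutlin-3A, 1.16 and 2.05 RPKM under Entinostat, 0.779 and 2.27 RPKM under the combination, and 4.15 and 5.18 RPKM in DMSO. The Entinostat and combination libraries lay below all others of this line. NRIP1 fell to 0.344 of its DMSO level under Entinostat (log2 change -1.32 ± 0.30, limma adjusted p = 0.0078). That call was lost without Entinostat replicate 1 (adjusted p = 0.0952) or DMSO replicate 2 (0.0655). The combination lowered it by the same measure against DMSO (-1.45 ± 0.30, adjusted p = 0.0019) and against Nutlin-3A (-1.35 ± 0.30, adjusted p = 0.0057), and without combination replicate 1 the adjusted p against Nutlin-3A was 0.0513. Nutlin-3A gave -0.10 with a 95% interval of -0.74 to 0.55.

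The gap between the lines in NRIP1 was -3.25 ± 0.30 under Nutlin-3A (limma, adjusted p = 8.68e-06), -2.04 ± 0.30 under Entinostat (0.00181) and -1.89 ± 0.30 under the combination (0.00062). The 11 other nuclear receptors and cofactors had a median log2 difference of -0.04 between the lines under Entinostat, against -0.02 over all tested genes. Entinostat raised 2 and lowered 1 of the 11 in p53-/- cells and raised 2 and lowered 3 in p53+/+ cells. CTBP1, a corepressor, fell in both lines (-0.73 ± 0.10 and -0.50 ± 0.10, adjusted p = 0.000782 and 0.0039), and NCOA3, a coactivator, rose in both (0.63 ± 0.12 and 0.57 ± 0.12, adjusted p = 0.00332 and 0.00531).

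ZBED2 encodes a zinc finger protein of a family derived from transposases. The p53-/- libraries held 34.0 and 31.5 RPKM under Nutlin-3A, 9.58 and 15.8 RPKM under Entinostat, 8.83 and 16.9 RPKM under the combination, and 32.5 and 31.6 RPKM in DMSO. Cells with p53 had 4.86 and 2.75 RPKM under Nutlin-3A, 0.724 and 0.858 RPKM under Entinostat, 0.682 and 1.15 RPKM under the combination, and 1.64 and 1.48 RPKM in DMSO. The lowest p53-/- library stood above the highest p53+/+ library, and in both lines the 4 libraries with Entinostat lay below the 4 without it. The lines differed by 2.99 ± 0.30 on the log2 scale under Nutlin-3A (limma, adjusted p = 2.07e-05), 3.31 ± 0.30 under Entinostat (7.43e-05) and 3.19 ± 0.30 under the combination (2.46e-05).

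In p53-/- cells ZBED2 fell to 0.396 of its DMSO level under Entinostat (log2 change -1.34 ± 0.30, limma adjusted p = 0.00794), which was 0.0941 without Entinostat replicate 1. The combination gave -1.35 ± 0.30 against DMSO (adjusted p = 0.00661) and -1.38 ± 0.30 against Nutlin-3A (0.00864). Those calls were lost without combination replicate 1 (0.0862 and 0.115), and the one against Nutlin-3A also without Nutlin-3A replicate 1 (0.0568). In p53+/+ cells the change under Entinostat was -0.68 with a 95% interval of -1.34 to -0.01 (adjusted p = 0.117), and it passed with quantile normalization (-0.95, 0.0456) and in a fit of only the 2 groups compared (0.0213). The change under the combination there was -0.56 (adjusted p = 0.143), and -0.90 with quantile normalization (0.0328). Nutlin-3A raised ZBED2 2.44-fold there (log2 change 1.02 ± 0.30, adjusted p = 0.0371), but adjusted p was 0.111, 0.29 and 0.173 without DMSO replicate 1, Nutlin-3A replicate 1 and DMSO replicate 2, 0.0918 with no filter on low values and 0.0744 with quantile normalization. With both drugs it stood at 0.241 of its level under Nutlin-3A (-1.58 ± 0.30, adjusted p = 0.003).

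The 6 other BED zinc finger genes had a median log2 difference of -0.03 between the lines under Entinostat, against -0.02 over all tested genes. Nutlin-3A raised 1 and lowered 1 of the 6 in p53+/+ cells. ZBED6 averaged 7.47 RPKM under Nutlin-3A and 4.57 RPKM in DMSO there (log2 change 0.65 ± 0.17, limma adjusted p = 0.0218). ZBED6 also rose in p53-/- cells under Entinostat (0.66 ± 0.17, adjusted p = 0.0156), where ZBED2 fell.

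PROM1 encodes prominin-1 (CD133), a protein of membrane protrusions that is used as a marker of progenitor cells in the colon. In p53-/- cells it was listed at 0 in all 4 libraries without Entinostat, at 0.0369 and 0.0189 RPKM under Entinostat, and at 0.0643 and 0.0182 RPKM under the combination. Levels in p53+/+ cells were 8.29 and 6.20 RPKM under Nutlin-3A, 6.45 and 5.66 RPKM under Entinostat, 5.43 and 5.65 RPKM under the combination, and 7.39 and 5.99 RPKM in DMSO. The p53+/+ libraries spanned 5.43 to 8.29 RPKM, and the p53-/- libraries were at or near 0 throughout. The lines differed by -3.94 ± 0.14 on the log2 scale under Nutlin-3A (limma, adjusted p = 7.53e-09), -3.63 ± 0.14 under Entinostat (5.55e-08) and -3.48 ± 0.14 under the combination (4.59e-08). Against DMSO in p53+/+ cells the change was 0.10 under Nutlin-3A, with a 95% interval of -0.21 to 0.42, and -0.13 under Entinostat, with an interval of -0.44 to 0.19. With the replicate block, PROM1 was lower under the combination than under Nutlin-3A in p53+/+ cells (-0.34, adjusted p = 0.0292, against 0.0816 without the block). It also passed with median of ratios scaling (-0.39, adjusted p = 0.0442) and without Nutlin-3A replicate 2 (-0.54, 0.0308).

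PROM2, the other prominin, averaged 5.17 RPKM under Nutlin-3A and 1.15 RPKM in DMSO in p53+/+ cells (log2 change 1.77 ± 0.20, limma adjusted p = 8.06e-05). Of the 8 other prominins and colon stem or progenitor genes tested, Nutlin-3A raised 2 and lowered 1 in p53+/+ cells. Entinostat raised 2 of the 8 in p53-/- cells and 3 in p53+/+ cells. EPHB3, a receptor of colon crypt cells, rose by 1.07 ± 0.32 in p53-/- cells (adjusted p = 0.0254) and 1.47 ± 0.32 in p53+/+ cells (0.00634), and its relative EPHB2 by 0.83 ± 0.18 (0.00578) and 1.03 ± 0.18 (0.00221).

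NECTIN3 encodes a cell adhesion molecule that binds other nectins on neighbouring cells. Cells without p53 had 15.7 and 17.3 RPKM under Nutlin-3A, 6.6 and 9.19 RPKM under Entinostat, 6.94 and 8.77 RPKM under the combination, and 15.6 and 14.6 RPKM in DMSO. p53+/+ cells had 3.23 and 3.06 RPKM under Nutlin-3A, 3.86 and 3.77 RPKM under Entinostat, 2.73 and 2.85 RPKM under the combination, and 3.47 and 3.27 RPKM in DMSO. All p53-/- libraries lay above all p53+/+ libraries, and within p53-/- cells the libraries with Entinostat lay below those without. NECTIN3 fell to 0.523 of its DMSO level under Entinostat (log2 change -0.91 ± 0.14, limma adjusted p = 0.00147) and to 0.476 of its Nutlin-3A level under the combination (-1.03 ± 0.14, adjusted p = 0.00113). Both calls held without any 1 library. In p53+/+ cells the change under Entinostat was 0.16 with a 95% interval of -0.15 to 0.46. Under the combination it was -0.23 there (adjusted p = 0.182), and -0.41 with quantile normalization (0.0366).

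The gap between the lines in NECTIN3 was 2.22 ± 0.14 on the log2 scale under Nutlin-3A (limma, adjusted p = 4.82e-07), 0.94 ± 0.14 under Entinostat (0.00222) and 1.34 ± 0.14 under the combination (4.79e-05). It was 5.25-fold, 2.07-fold and 2.82-fold in RPKM. In a fit of only the 2 Entinostat groups its adjusted p was 0.0854. With the replicate block, NECTIN3 was also lower under the combination than under Entinostat in p53+/+ cells (-0.39, adjusted p = 0.0303, against 0.0845 without the block). The 8 other nectins and their partners had a median log2 difference of -0.12 between the lines under Entinostat, against -0.02 over all tested genes. NECTIN4 averaged 4.02 RPKM under Nutlin-3A and 0.276 RPKM in DMSO in p53+/+ cells (log2 change 2.52 ± 0.17, adjusted p = 2.8e-06), and NECTIN1 rose by 0.94 ± 0.09 (3.43e-05), while NECTIN3 gave -0.09. CDH1, which encodes the epithelial cadherin, and MLLT4, which encodes the nectin anchor afadin, rose under Entinostat in both lines, by 0.76 and 0.73 in p53-/- cells and 0.79 and 0.61 in p53+/+ cells, with adjusted p of 0.00231 or less.

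DNER encodes a transmembrane protein with EGF repeats that has been described as a Notch ligand in the nervous system. Levels in p53-/- cells were 2.27 and 2.19 RPKM under Nutlin-3A, 3.12 and 2.44 RPKM under Entinostat, 3.75 and 2.26 RPKM under the combination, and 2.25 and 2.16 RPKM in DMSO. In p53+/+ cells it had 0.143 and 0.218 RPKM under Nutlin-3A, 1.17 and 0.895 RPKM under Entinostat, 1.77 and 0.836 RPKM under the combination, and 0.244 and 0.170 RPKM in DMSO. All p53-/- libraries stood above all p53+/+ libraries, and the p53+/+ libraries with Entinostat came nearest to them. DNER rose 4.98-fold there under Entinostat (log2 change 1.11 ± 0.24, limma adjusted p = 0.00671) and 7.22-fold under the combination against Nutlin-3A (1.36 ± 0.24, adjusted p = 0.00194). The first was 0.0724 without Entinostat replicate 1 and 0.0538 without DMSO replicate 2. Its change under Entinostat in p53-/- cells was 0.27 with a 95% interval of -0.25 to 0.80.

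The lines differed in DNER by 2.00 ± 0.24 on the log2 scale under Nutlin-3A (limma, adjusted p = 7.02e-05), 1.10 ± 0.24 under Entinostat (0.0251) and 0.97 ± 0.24 under the combination (0.00836). Under Entinostat the call was lost without any 1 of the 4 libraries, with adjusted p from 0.0768 without p53-/- replicate 2 to 0.163 without p53+/+ replicate 2, and with no filter on low values (0.0545). Under the combination it was 0.0774 without p53-/- replicate 1 and 0.0648 without p53+/+ replicate 2. In fits of only the 2 groups compared the adjusted p was 0.0606 under Entinostat and 0.0824 under the combination.

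Of 13 other Notch ligands, receptors and targets, Entinostat raised 7 and lowered 1 in p53-/- cells and raised 8 and lowered 1 in p53+/+ cells. Their median log2 change was 0.57 and 0.51, against 0.02 and 0.01 over all tested genes. HEY1, a Notch target, averaged 2.71 RPKM under Entinostat and 0.212 RPKM in DMSO in p53-/- cells (log2 change 2.14 ± 0.34, limma adjusted p = 0.00163), and 3.85 and 0.120 RPKM in p53+/+ cells (2.75 ± 0.34, adjusted p = 0.000625). The ligand DLL4 rose by 1.56 ± 0.30 (0.00362) and 1.79 ± 0.30 (0.00196). HEY1 and DLL4 thus passed the test in both lines, and DNER in p53+/+ cells. Nutlin-3A raised 4 and lowered 1 of the 13 in p53+/+ cells, with NOTCH3 and NOTCH1, both receptors, up by 0.91 and 0.76 (adjusted p = 0.00223 and 0.00151), and DNER at -0.06.

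CASP4 encodes the caspase that senses bacterial lipopolysaccharide in the cytosol and triggers pyroptosis, an inflammatory cell death. p53-/- cells had 0.623 and 0.308 RPKM under Nutlin-3A, 0.392 and 0.515 RPKM under Entinostat, 0.669 and 0.524 RPKM under the combination, and 0.387 and 0.291 RPKM in DMSO. The p53+/+ libraries held 11.1 and 10.2 RPKM under Nutlin-3A, 7.04 and 7.87 RPKM under Entinostat, 9.004 and 8.86 RPKM under the combination, and 9.20 and 8.65 RPKM in DMSO. All p53-/- libraries stood far below every p53+/+ library. Between the lines the difference was -3.55 ± 0.15 on the log2 scale under Nutlin-3A (limma, adjusted p = 2.59e-08), -3.06 ± 0.15 under Entinostat (2.67e-07) and -3.11 ± 0.15 under the combination (1.12e-07). Against DMSO, CASP4 in p53+/+ cells gave 0.24 under Nutlin-3A, with a 95% interval of -0.09 to 0.57, and -0.25 under Entinostat, with an interval of -0.58 to 0.08. The combination gave 0.39 ± 0.15 in p53-/- cells (adjusted p = 0.0704), which passed with the replicate block (0.0302), as did 48.8% of all genes. With a pseudocount of 0.1 in place of 0.5 it was 0.67 on the log2 scale and passed too (limma, adjusted p = 0.0451).

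The 6 other genes of inflammatory caspases and pyroptosis had a median log2 difference of -0.19 between the lines under Entinostat, against -0.02 over all tested genes. Nutlin-3A raised 2 of the 6 in p53+/+ cells. NLRP1, an inflammasome sensor, averaged 3.48 RPKM under Nutlin-3A and 0.620 RPKM in DMSO (log2 change 1.84 ± 0.13, limma adjusted p = 2.97e-06), and NINJ1, which breaks the membrane in lytic death, 62.6 and 22.8 RPKM (1.44 ± 0.14, adjusted p = 2.78e-05).

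RGS2 encodes a protein that shortens signalling by Gq-coupled receptors. In p53-/- cells it had 2.51 and 2.41 RPKM under Nutlin-3A, 15.9 and 9.44 RPKM under Entinostat, 14.6 and 9.77 RPKM under the combination, and 2.66 and 2.42 RPKM in DMSO. Cells with p53 had 25.1 and 14.6 RPKM under Nutlin-3A, 34.9 and 22.1 RPKM under Entinostat, 33.6 and 22.0 RPKM under the combination, and 36.1 and 18.4 RPKM in DMSO. Entinostat raised RGS2 in all p53-/- libraries above every p53-/- library without it, and the highest of them passed the lowest p53+/+ library, while the p53+/+ groups overlapped. Replicate 1 was higher than replicate 2 in every group. RGS2 rose 4.99-fold in p53-/- cells under Entinostat (log2 change 2.07 ± 0.37, limma adjusted p = 0.0025) and 4.95-fold under the combination against Nutlin-3A (2.07 ± 0.37, adjusted p = 0.0032), the second at 0.0505 without combination replicate 1. In p53+/+ cells its change under Entinostat was 0.10 with a 95% interval of -0.69 to 0.90.

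The gap between the lines in RGS2 was -2.73 ± 0.37 on the log2 scale under Nutlin-3A (limma, adjusted p = 0.000156) and -1.15 ± 0.37 under Entinostat (0.124). By the ratio of mean RPKM it was 8.07-fold and 2.25-fold. With the replicate block the gap under Entinostat passed the test (0.000858), as did 13.2% of all genes. Under the combination it was -1.15 ± 0.37 (adjusted p = 0.0272), which was 0.197 without p53+/+ replicate 1, 0.179 without p53-/- replicate 2 and 0.0663 with no filter on low values. The block also called a higher RGS2 under the combination than under Nutlin-3A in p53+/+ cells (0.50, adjusted p = 0.0305, against 0.31 without the block). Of 6 other small RGS genes, RGS16 averaged 7.39 RPKM under Nutlin-3A and 2.03 RPKM in DMSO in p53+/+ cells (1.64 ± 0.22, adjusted p = 0.000328), where RGS2 gave -0.42 with a 95% interval of -1.21 to 0.38. Entinostat raised 1 and lowered 1 of the 6 in p53-/- cells, with RGS16 up by 0.66 ± 0.22 (adjusted p = 0.0432) and RGS19 at -0.56 ± 0.14 (0.0106).

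ENC1 encodes a kelch protein that serves as an adaptor of CUL3 ubiquitin ligases. The p53-/- libraries held 1.13 and 1.14 RPKM under Nutlin-3A, 3.69 and 2.36 RPKM under Entinostat, 3.73 and 2.62 RPKM under the combination, and 0.900 and 1.23 RPKM in DMSO. Levels in p53+/+ cells were 12.4 and 18.7 RPKM under Nutlin-3A, 15.4 and 17.2 RPKM under Entinostat, 18.9 and 26.1 RPKM under the combination, and 8.73 and 12.4 RPKM in DMSO. All p53-/- libraries stood below all p53+/+ libraries, and in both lines the combination libraries stood above the DMSO libraries. ENC1 rose 2.85-fold in p53-/- cells under Entinostat (log2 change 1.16 ± 0.25, limma adjusted p = 0.00646) and 2.99-fold under the combination (1.22 ± 0.25, adjusted p = 0.00422). These were 0.081 without Entinostat replicate 1 and 0.0573 without combination replicate 1. In p53+/+ cells Entinostat gave 0.62 ± 0.25 (adjusted p = 0.0836). It was called with the replicate block (0.0429), which called 44.6% of all genes, and in a fit of only the 2 groups compared (0.0337). The combination gave 1.06 ± 0.25 (0.00438).

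The difference between the lines in ENC1 was -3.27 ± 0.25 on the log2 scale under Nutlin-3A (limma, adjusted p = 2.15e-06), -2.28 ± 0.25 under Entinostat (0.000281) and -2.64 ± 0.25 under the combination (2.38e-05). The 11 other genes of kelch adaptors and their ligase had a median log2 difference of -0.02 between the lines under Entinostat, the same as all tested genes. KEAP1, the adaptor that limits the antioxidant factor NRF2, fell under Entinostat by 1.06 ± 0.13 in p53-/- cells (adjusted p = 0.000513) and by 1.10 ± 0.13 in p53+/+ cells (0.00057). Entinostat raised 1 and lowered 2 of the 11 in p53-/- cells and raised 3 and lowered 2 in p53+/+ cells. The labels do not say whether reads were counted by strand, so reads of ENC1 might not be told apart from reads of the opposite strand.

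TIMM17B encodes a subunit of TIM23, the channel that imports proteins into the mitochondrial matrix. Cells without p53 had 21.6 and 17.6 RPKM under Nutlin-3A, 17.6 and 17.5 RPKM under Entinostat, 15.7 and 18.04 RPKM under the combination, and 21.7 and 22.1 RPKM in DMSO. p53+/+ cells had 4.07 and 4.38 RPKM under Nutlin-3A, 4.50 and 4.14 RPKM under Entinostat, 4.25 and 4.47 RPKM under the combination, and 5.47 and 4.15 RPKM in DMSO. The lowest p53-/- library stood far above the highest p53+/+ library, and the libraries spanned 15.7 to 22.1 RPKM in p53-/- and 4.07 to 5.47 RPKM in p53+/+ cells. The lines differed by 2.08 ± 0.13 on the log2 scale under Nutlin-3A (limma, adjusted p = 3.7e-07), 1.90 ± 0.13 under Entinostat (6.9e-06) and 1.84 ± 0.13 under the combination (2.24e-06). The combination lowered TIMM17B in p53-/- cells to 0.770 of its DMSO level (-0.37 ± 0.13, adjusted p = 0.0444), a call lost without combination replicate 1 (0.282), DMSO replicate 1 (0.118) or DMSO replicate 2 (0.158). It was also lost with no filter on low values (0.0701), with quantile normalization (-0.26, 0.129) and in a fit of only the 2 groups compared (0.0512), so 6 of 12 alternative settings called it. Entinostat gave -0.31 ± 0.13 (0.0883), called with the replicate block (0.0467), which called 45.5% of all genes, and with median of ratios scaling (0.0422).

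The other 11 genes of the TIM23 translocase had a median log2 difference between the lines of 0.30 under Nutlin-3A, 0.16 under Entinostat and 0.35 under the combination. Of these 5 were higher in p53-/- cells under Nutlin-3A and 6 under the combination. TIMM23, the channel subunit itself, was higher by 0.55 ± 0.11 under Nutlin-3A (limma, adjusted p = 0.00216) and 0.57 ± 0.11 under the combination (0.00187). Entinostat lowered 5 of the 11 in p53-/- cells and 4 in p53+/+ cells. TIMM44, which tethers the import motor, fell to 26.6 RPKM under Entinostat, against 40.9 RPKM in DMSO, in p53-/- cells (-0.61 ± 0.11, adjusted p = 0.0023), and to 26.5 RPKM, against 37.2 RPKM in DMSO, in p53+/+ cells (-0.48 ± 0.11, adjusted p = 0.00715). TIMM17B overlaps PQBP1 on the other strand in the GENCODE annotation. PQBP1 averaged 24.5 RPKM in p53-/- and 24.9 RPKM in p53+/+ cells under Nutlin-3A, a log2 difference of -0.03 with a 95% interval of -0.35 to 0.28, so the difference in TIMM17B was not seen in PQBP1.

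**Figure D2:**
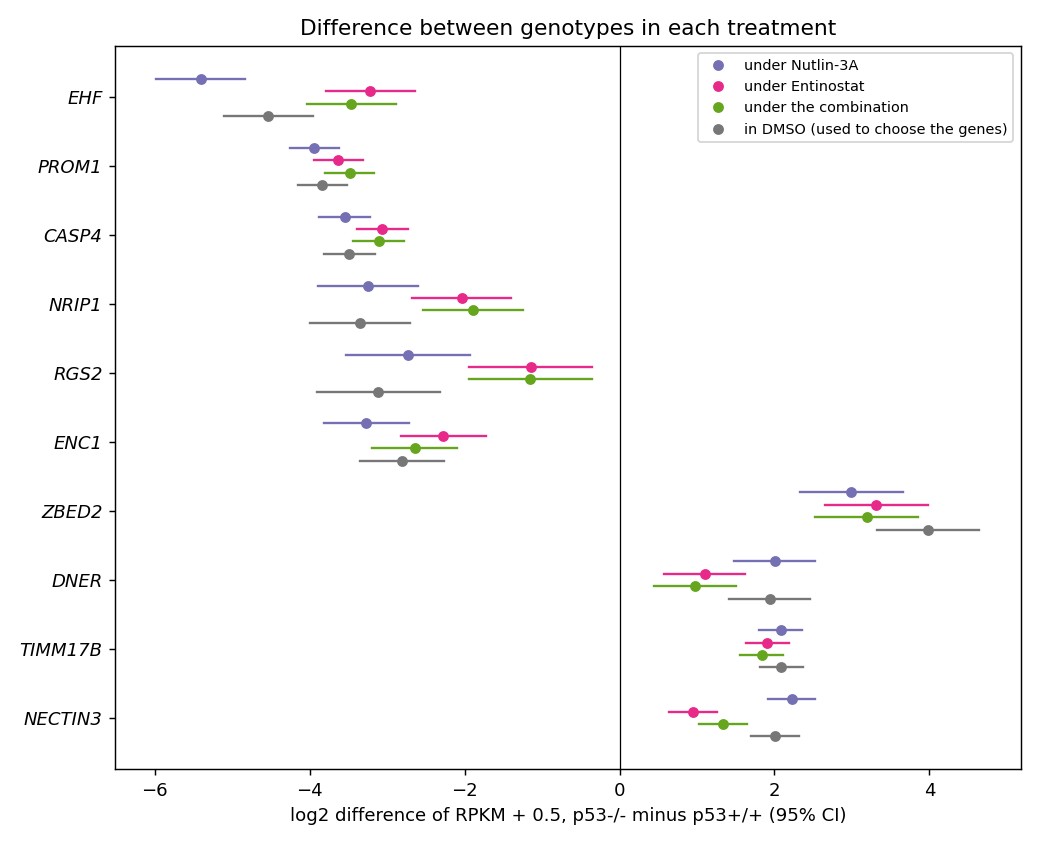
Difference between the lines in log2(RPKM + 0.5), p53-/- minus p53+/+, for each gene under Nutlin-3A, Entinostat, the combination and in DMSO, with 95% intervals from limma. Each gene kept its side of 0 in all 4 conditions, and all but ZBED2 stood nearer to 0 under Entinostat than under Nutlin-3A. The intervals of these 2 treatments overlapped for every gene except EHF and NECTIN3, and the change of the gap between them was not tested. EHF, NRIP1 and PROM1 were near 0 RPKM in p53-/- cells, so their gap follows mainly the p53+/+ level.

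The drugs thus left the sign of each difference in place. The libraries of the 2 lines did not overlap under Nutlin-3A for any of the 10 genes, where 68.7% of all genes had libraries that did not overlap. The median log2 difference of the 10 genes was -2.99 under Nutlin-3A, -1.59 under Entinostat and -1.52 under the combination, and that of all tested genes lay between -0.02 and 0.02. More of the 10 were chosen as lower than as higher, so the sign of their median follows from the choice. It is no measure of the typical size of the gap. Across alternative settings EHF, NRIP1, PROM1, CASP4, ENC1, ZBED2 and TIMM17B were called between the lines under all 3 treatments in every setting tried.

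**Figure D3:**
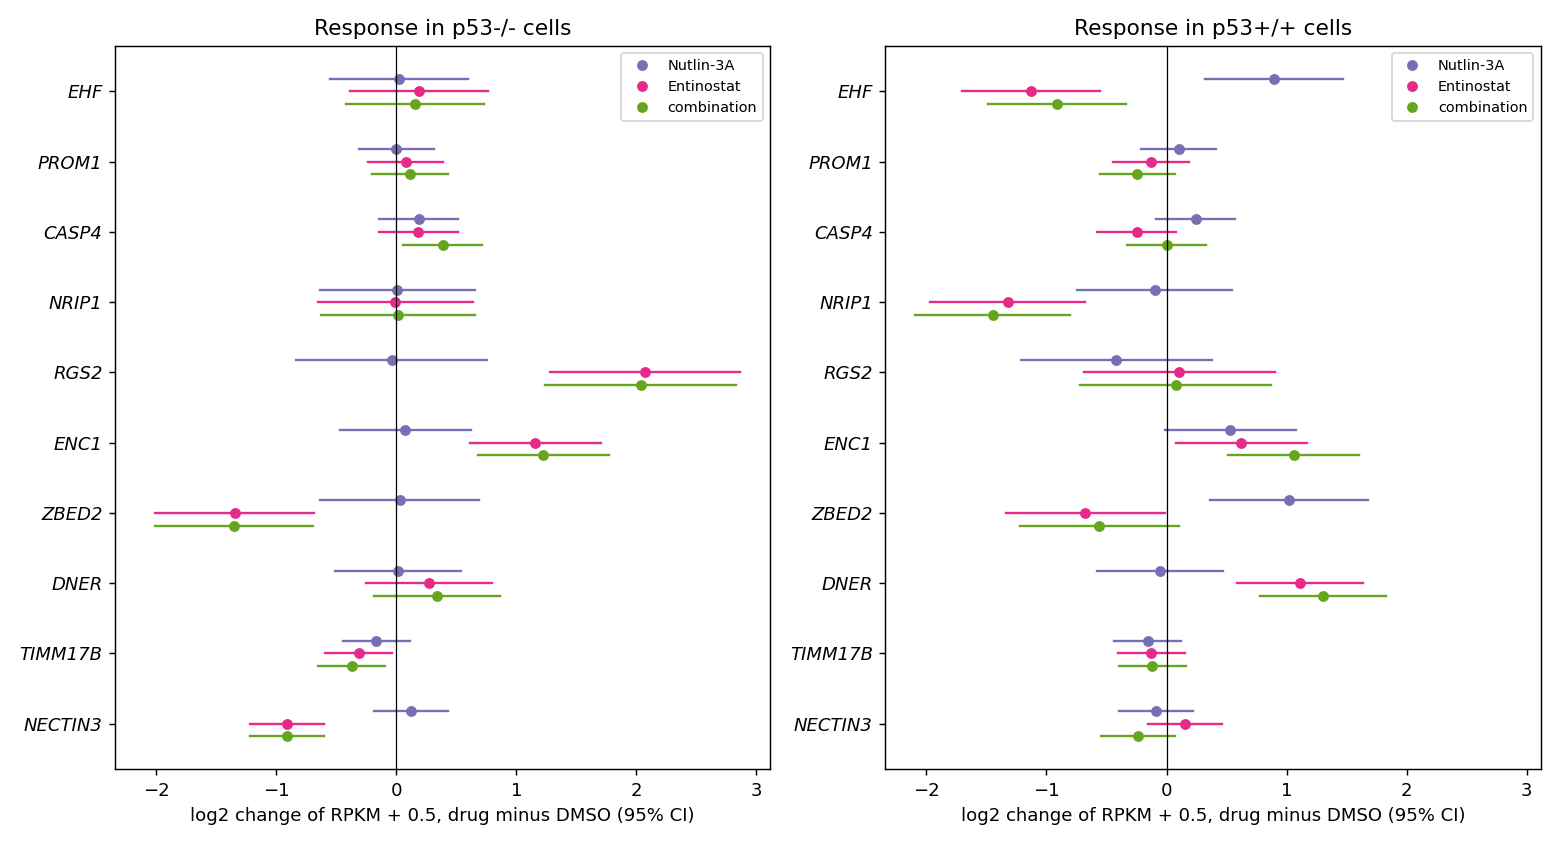
Change in log2(RPKM + 0.5) of each gene under Nutlin-3A, Entinostat and the combination against DMSO, in p53-/- cells (left) and p53+/+ cells (right), with 95% intervals from limma. The Nutlin-3A intervals cover 0 for all 10 genes in p53-/- cells, and under Entinostat the intervals of RGS2 and ENC1 lay above 0 and those of ZBED2, NECTIN3 and TIMM17B below it, of which TIMM17B did not pass the test.

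The combination changed 5 of the 10 genes against DMSO in p53-/- cells, where 31.8% of all genes were called, and 4 in p53+/+ cells, where 50% were called. Against Nutlin-3A it changed RGS2, ENC1, ZBED2 and NECTIN3 in p53-/- cells, 4 of 10 against 23.4% of all genes, and EHF, NRIP1, ZBED2 and DNER in p53+/+ cells, 4 of 10 against 34.7%. With the replicate block the count in p53+/+ cells was 6, with PROM1 and RGS2 added, against 52.4% of all genes. Against Entinostat limma called 0 of the 10 and 0% of all genes in p53-/- cells. An unadjusted p under 0.05 was reached there by 0 of the 10 and by 48 of all tested genes. In p53+/+ cells limma called 0 of the 10 and 14.8% of all genes against Entinostat. An unadjusted p under 0.05 was reached by 1 of the 10 and by 3710 of all tested genes. The block called 1, NECTIN3, and 31.3% of all genes.

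Whether the effect of Entinostat differed between the lines was tested with Nutlin-3A in both arms, as the combination against Nutlin-3A, which uses no DMSO library. Limma called 0 of the 10 genes and 0.0882% of all genes. An unadjusted p under 0.05 was reached by 6 of the 10 and by 789 of the 12466 tested genes. With the replicate block 3 of the 10 passed, and 0.874% of all genes. The difference in response, p53-/- minus p53+/+, was 1.94 ± 0.37 for EHF (adjusted p = 0.116, and 0.0232 with the block), 1.58 ± 0.52 for RGS2 (0.541 and 0.0106) and -0.89 ± 0.20 for NECTIN3 (0.213 and 0.0372). EHF and NRIP1 stayed at or below 0.233 and 0.0157 RPKM in p53-/- cells, where a fall could not be seen. For EHF and NRIP1 the difference therefore rests on their fall in p53+/+ cells, and the test cannot show that p53-/- cells respond otherwise. Without p53+/+ combination replicate 2 the fit without the block called EHF and NRIP1 (0.0119 and 0.0333). For ENC1 and ZBED2 the difference was 0.62 and 0.20, with 95% intervals of -0.15 to 1.39 and -0.74 to 1.13. The effect of Nutlin-3A on top of Entinostat was called as different between the lines for 0 of the 10 genes and for 3.52% of all genes. At an unadjusted p under 0.05 these were 0 of the 10 and 2237 of all tested genes.

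A list of known p53 targets gives the scale of these responses. All 19 tested rose under Nutlin-3A in p53+/+ cells, with a median log2 change of 2.13, while EHF and ZBED2 rose by 0.90 and 1.02 and the median of the 10 genes was 0.02. The same 19 targets had a median log2 change of 0.08 under Nutlin-3A in p53-/- cells. Entinostat raised 3 and lowered 2 of the 19 in p53-/- cells and lowered 2 in p53+/+ cells.

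The genes next to the 10 on their chromosomes were compared in the same way. Among the 2 nearest tested genes on each side by RefSeq gene order, 36 distinct neighbours that are not among the 10, limma called 10 higher and 3 lower in p53-/- cells under Nutlin-3A, 2 and 0 under Entinostat, and 14 and 3 under the combination. Of all genes, 34.4%, 3.76% and 36.3% were called in these comparisons in either direction, so under Nutlin-3A and Entinostat the count of neighbours was near that of genes at large. Only FGFBP1, beside PROM1, and TEKT4P2, near NRIP1, were called under all 3. FGFBP1, which encodes a carrier of fibroblast growth factors, was higher in p53-/- cells, by 1.38 ± 0.15 under Nutlin-3A (adjusted p = 3.48e-05), 1.07 ± 0.15 under Entinostat (0.00156) and 0.54 ± 0.15 under the combination (0.0156), the opposite of PROM1. TEKT4P2, a pseudogene whose reads may be shared with its relatives, was higher by 0.68 ± 0.12, 0.64 ± 0.12 and 0.65 ± 0.12 (adjusted p = 0.000765, 0.00798 and 0.00132), the opposite of NRIP1.

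ZBED2 and NECTIN3 are next to each other on chromosome 3 among the tested genes, and both were higher in p53-/- cells. No tested gene lies between them. On the far side of NECTIN3, DZIP3 gave a log2 difference of -0.23 under Nutlin-3A, with a 95% interval of -0.52 to 0.06. KIAA1524, beyond it, was higher in p53-/- cells under Nutlin-3A (1.36 ± 0.19, limma adjusted p = 0.000247) and under the combination (1.36 ± 0.19, 0.000347), as NECTIN3 was. On the far side of ZBED2, PLCXD2 was lower in p53-/- cells under Nutlin-3A (-1.16 ± 0.20, limma adjusted p = 0.00107) and PHLDB2, beyond it, higher (1.14 ± 0.30, adjusted p = 0.011). ZBED2 overlaps CD96 on the other strand, which had at most 0.294 RPKM.

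**Figure D4:**
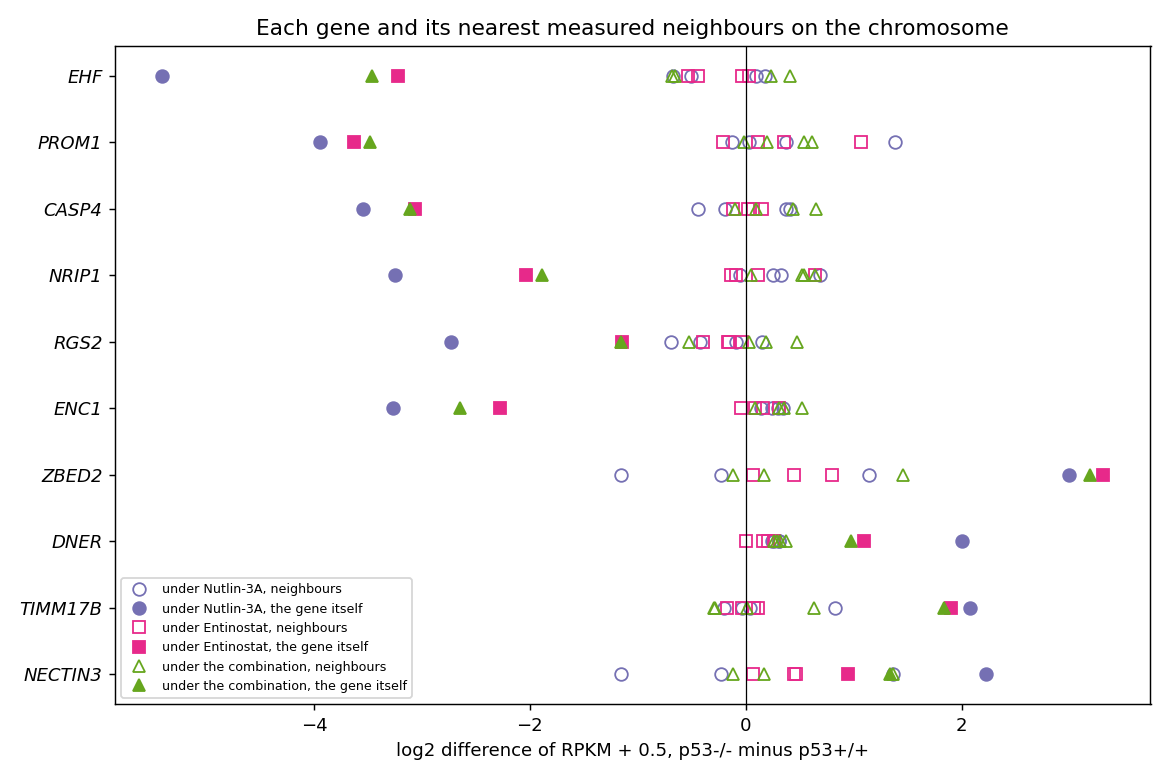
Difference between the lines in log2(RPKM + 0.5), p53-/- minus p53+/+, of each gene (filled) and of its nearest tested neighbours on the chromosome that are not among the 10 (open), under Nutlin-3A (circles), Entinostat (squares) and the combination (triangles). ZBED2 and NECTIN3, neighbours of each other, are therefore not drawn as open symbols. The filled symbols stand outside the range of the open ones of the same gene and treatment, except for NECTIN3 under the combination, at 1.34 beside KIAA1524 at 1.36. The 10 genes were chosen for large differences in DMSO and their neighbours were not, so this contrast follows largely from the choice.

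Finally, the genes most like each of the 10 across treatments were taken as those with the highest Pearson r of log2(RPKM + 0.5) over the 8 libraries of the line in which the gene was high. The libraries share their drugs and replicate numbers, so these values are a description. In p53+/+ cells EHF was most like CCDC43 (r = 0.9954) and TRAF3IP2 (0.9909), NRIP1 like TET3 (0.9969) and OTUD4 (0.9939), and PROM1 like SEC24B (0.9792) and ATXN10 (0.9624). CASP4 was most like TMBIM1 (0.9883) and AJUBA (0.9785), RGS2 like CTDSP2 (0.9608) and ATP5G3 (0.955), and ENC1 like SKIV2L (0.9761) and OR51B2 (0.973). In p53-/- cells ZBED2 was most like PDE4B (0.9985) and HDGF (0.9983), and NECTIN3 like GRSF1 (0.9973) and DNAJC2 (0.9967). DNER there was most like GPC4 (0.9882) and PPIC (0.9834), and TIMM17B like C1orf216 (0.9924) and TRAPPC4 (0.9841). The 10 genes themselves were left out of this search.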

How the data were processed

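The authors deposited RPKM per gene for 20612 genes in 16 libraries, from libraries prepared with a stranded mRNA kit, per the labels. The submitters' processing notes name Bowtie2, Partek and hg19. Their versions, the gene models and the use of strand in counting are not given in the sources used. No further scaling was applied. log2(RPKM + 0.5), computed here, understates the change of low genes, so folds are ratios of mean RPKM. Genes with a mean of at least 0.5 RPKM were tested (12466, or 60.5%). limma 3.58.1 in R 4.3.3 fitted 8 group means with an intensity trend, giving 8 residual and 4.09 prior degrees of freedom, and p values were adjusted by Benjamini-Hochberg per comparison. The code was tested on simulated data.

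The 10 genes and the gene lists were chosen with earlier results of these data known, so a list's count is no independent evidence. Up to 3 called genes per list and comparison were eligible for naming, by absolute log2 change, besides neighbours called between the lines under all 3 treatments and the 2 most alike genes. The genes flanking ZBED2 and NECTIN3 and PQBP1 and CD96, which overlap members, were named after their values were seen. The level of the targeted gene is not reported here. Replicate differences correlated between all 28 pairs of groups (r from 0.275 to 0.778, median 0.425), so the numbers of the labels pair the samples, and the pairing was fitted as an alternative. Other alternatives were pseudocounts of 0.1 and 1, filters, scalings, fits of single comparisons and leaving out each library. Neighbours used RefSeq gene order and overlaps GENCODE, both on GRCh38, without coordinates.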

Additional observations from a re-analysis of the deposited data

Results flagged for a closer look

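In 6 instances every library of one line moved one way against DMSO and every library of the other line the opposite way. How many of all tested genes did so was not counted, so these instances are a description only. These differences in response between the lines were not tested, because the DMSO libraries were used to choose the genes. Values are the log2 change in p53-/- cells minus that in p53+/+ cells. EHF gave 1.32 for Entinostat and 1.07 for the combination, with levels at or below 0.233 RPKM in all p53-/- libraries. NECTIN3 gave -1.07 for Entinostat and 0.21 for Nutlin-3A, where its lower p53-/- library held 15.68 RPKM and the higher DMSO library 15.60 RPKM. CASP4 gave 0.43 for Entinostat, where its lower p53-/- library held 0.392 RPKM and the higher DMSO library 0.387 RPKM. PROM1 gave 0.36 for the combination, with 0.0643 and 0.0182 RPKM in p53-/- cells, where it was listed at 0 in the DMSO libraries.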

How the results depend on the processing

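No result among the 10 genes that passed the test changed sign in any setting, while 81 results passed in no setting, and 50 of those changed sign in at least 1. The number of genes called under Nutlin-3A against DMSO in p53+/+ cells was 2, and became 1 with a pseudocount of 0.1, 1 with quantile normalization, 0 without the filter on low values and 0 to 1 without single libraries. Under Entinostat against DMSO it was 4 in p53-/- cells, with 2 to 4 without single libraries (2 without Entinostat replicate 1). It was 3 in p53+/+ cells, with 5 in a fit of only these 2 groups and 0 to 3 without single libraries (0 without Entinostat replicate 1 or DMSO replicate 2). For the combination in p53-/- cells it was 5 against DMSO, with 2 to 5 without single libraries, and 4 against Nutlin-3A, with 1 to 4, the lowest in both without combination replicate 1. Without each library named here the number of all tested genes called fell as well, so the loss was not particular to the 10 genes. The fit of only the 2 groups for Entinostat in p53+/+ cells called 3481 of all tested genes in place of 3434. The cause was not tested.

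With the replicate block, which uses the pairing, 1 gene was called for the combination against Entinostat in p53+/+ cells in place of 0. For the difference between the lines in the response to Entinostat on top of Nutlin-3A it called 3 in place of 0. Single libraries were left out only in fits without the block, so how far these 3 calls depend on 1 library was not tested. Besides the calls given above with the block, it changed none among the 10 genes. Over all tested genes it called 1634 in place of 585 between the lines in DMSO, 1644 in place of 469 under Entinostat, 3931 in place of 2167 for Nutlin-3A in p53+/+ cells, 5677 in place of 3520 and 5565 in place of 3434 for Entinostat in p53-/- and p53+/+ cells, 6088 in place of 3965 for the combination in p53-/- cells, 5141 in place of 2912 and 6529 in place of 4323 for the combination against Nutlin-3A, 3896 in place of 1851 against Entinostat in p53+/+ cells, and 109 in place of 11 and 1776 in place of 439 for the 2 differences in response. With 2 replicates a group and 1 line per genotype, precision rests on a spread pooled over groups, and levels near 0 RPKM limit what can be seen of EHF, NRIP1 and PROM1 in p53-/- cells.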
